A study of Mus musculus with 10 samples.

Results

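The genes described here serve protein folding, quality control and stress signalling in the endoplasmic reticulum (ER). They were a list of 32 symbols, matched to the array's platform annotation, and each gene was read from its single-symbol probe set with the highest mean over the 10 arrays. All 32 were found among 19938 genes with such a probe set, and all 32 passed the filter on low values that left 14953 genes for testing. Total RNA came from the prostates of male TRAMP mice, a transgenic line in which the probasin promoter drives SV40 T antigens in prostate epithelium, so that all animals of both groups develop prostate tumours. From the age of 8 to 9 weeks, 5 mice were given plain tap water and 5 were given nicotine, as the tartrate salt, at 250 µg/ml in tap water. Each mouse had 1 single-colour whole-transcript array. The labels do not state the prostate lobe, the age at collection or the tumour stage.

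Secretory proteins enter the ER through the Sec61 channel and fold there with the help of the Hsp70-type chaperone BiP (Hspa5), lectin chaperones and disulfide isomerases. Proteins that fail to fold are returned to the cytosol and destroyed, a route called ER-associated degradation. A load of unfolded protein is sensed by Ire1 (Ern1), Perk (Eif2ak3) and Atf6. Ire1 splices Xbp1 mRNA and cleaved Atf6 enters the nucleus, and these factors raise folding and degradation genes, while Perk slows translation and favours synthesis of Atf4. The secretory epithelium of the prostate makes large amounts of fluid proteins and depends on this machinery. The arrays measured RNA levels, so splicing of Xbp1, cleavage of Atf6 and translation of Atf4 were not measured.

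The deposited values are log2 signals, so a difference of 1 is a factor of 2. The arrays of nicotine 1 and nicotine 3 stood apart. Chga, a secretory granule gene of neuroendocrine cells, reached 11.74 in nicotine 1 and 11.30 in nicotine 3, where the remaining 8 mice had 7.07 to 7.73. The mean of 10 prostate luminal markers was 7.63 in nicotine 3 and 10.90 in nicotine 1, against 11.54 to 11.81 in the others, and Pbsn (probasin) was listed at 5.08 in nicotine 3, below the filter limit of 6.55. Skeletal muscle markers (8 of 10 tested) averaged 10.52 in nicotine 1 and 7.57 to 7.95 in the others; their part in its ER gene levels was not tested. Nicotine 3 correlated with the rest of the arrays at a median of 0.654 and nicotine 1 at 0.880, the remaining mice at 0.983 to 0.988. Comparisons were therefore made over all mice and without nicotine 1 and 3, the arrays with Chga above 9 (3 nicotine against 5 water mice). In whole tissue, fewer cells of a type and less RNA per cell cannot be told apart.

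Over all mice, 27 of the 32 genes had a lower mean with nicotine and 5 a higher mean, with a median log2 difference of -0.27, against 49.3% lower and a median of 0.00 over all tested genes. The median was -0.07 with array weights, with 23 genes lower, and -0.15 with the seminal vesicle marker mean as a covariate. The 5 were Atf4, Ddit3, Trib3, Chac1 and Asns. None of the 32 passed limma's moderated test at an adjusted p of 0.05, where 0.0% of all tested genes passed. With an unadjusted p under 0.05 were 3 genes, Dnajb9, Eif2ak3 and Sel1l, all lower, and 0 higher, where 5.84% of tested genes were lower and 4.28% higher. For Dnajb9 and Eif2ak3 the highest nicotine mouse was under the lowest water mouse, and for 0 genes the reverse held, where the groups stood apart in 2.88% (lower) and 2.02% (higher) of tested genes. Set against both directions of that background, 3 of 32 is near it. The count was 1 when water 2, 3, 4 or 5 was left out and 5 without nicotine 4. Without nicotine 1 and 3, 22 genes were lower and 10 higher, where 46.5% of tested genes were lower. The median was -0.06 against 0.01 over all tested genes, and 9 of the 32 changed sign. That median was -0.03 without nicotine 2 and -0.10 without nicotine 4. None passed there either (0.0% of tested genes). Hspa5 joined the 3 genes at an unadjusted p under 0.05, where 8.69% of tested genes were lower and 6.01% higher. Sel1l joined Dnajb9 and Eif2ak3 among the genes whose groups stood apart, where the background was 6.47% lower and 4.12% higher. At an unadjusted p under 0.05 the count of 4 was 2 without nicotine 2, 7 without nicotine 4 and 6 without water 5. For the counts with a further mouse left out, in either comparison, the shares of all tested genes are not given. Array weights, which give less weight to aberrant arrays, were the setting in which genes of the list passed over all mice: Dnajb9, Eif2ak3 and Sel1l. In that setting 1096 of the 14953 tested genes were called, a share near that of 3 in 32.

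**Figure D1:**
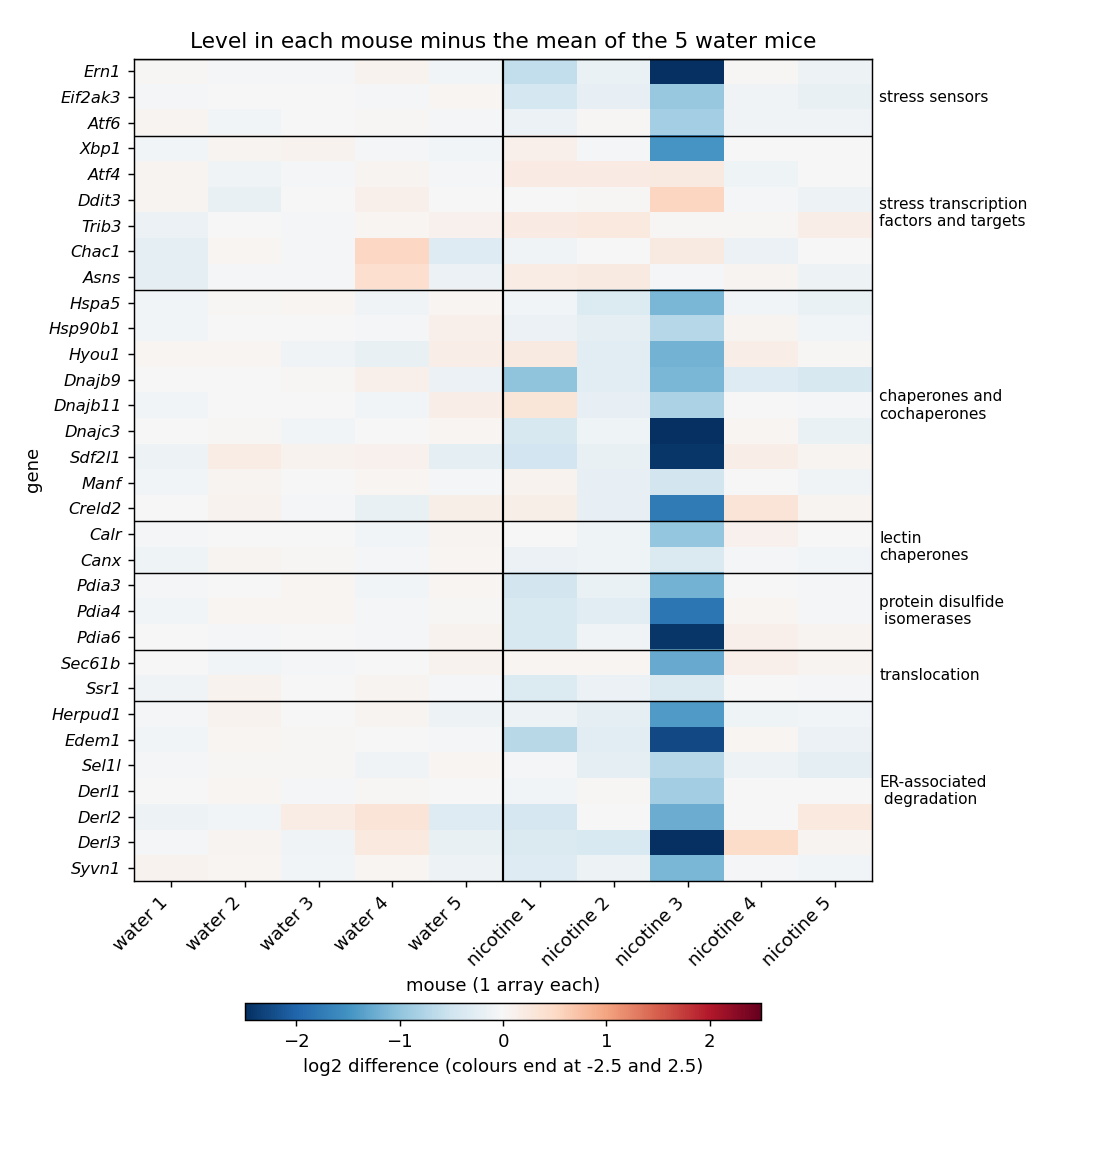
Heat map of the 32 genes (rows, by role) in the 10 mice (columns), as the log2 level minus the mean of the 5 water mice, blue for lower and red for higher; Derl3 and Ern1 in nicotine 3 lie beyond the end of the colour scale. The column of nicotine 3 is blue for 27 genes, while Atf4, Ddit3, Trib3, Chac1 and Asns are within -0.03 to 0.53 of the water mean there.

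The lower means rested largely on nicotine 3, without which the median difference was -0.07. This mouse was the lowest of the 10 mice for 27 of the 32 genes, or 84.4%, where it was the lowest for 35.3% of tested genes. It lay more than 1 log2 unit under the water mean for 17 of the 32, against 14.3% of tested genes, and its median distance was -1.14 against -0.02 over all tested genes. This is 1 mouse, so these counts describe its tissue and have no test. Its luminal markers were low as given above, its smooth muscle markers averaged 7.99 against 10.53 to 10.79 in water mice, and its proliferation markers averaged 11.27 against 9.65 to 9.85. The part of this tissue makeup in the ER gene levels was not tested.

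Sequence elements near the start sites differed among the genes. RefSeq promoter windows (GRCm38.p6, 250 bases before to 50 after the start) were found for 28 of the 32 genes, and 4 motifs were searched on both strands. The ER stress element, ERSE, was searched as CCAAT and CCACG with 9 bases of any kind between them, and is known as a site where NF-Y and Atf6 or Xbp1 bind together. It was present in 9 of the 28 genes (Hspa5, Hsp90b1, Dnajc3, Creld2, Calr, Canx, Pdia6, Derl3 and Syvn1), and in 0.119% of all 32851 windows. ERSE-II, searched as ATTGG and CCACG with 1 base of any kind between them, was in Dnajb11 and Herpud1 and in 0.0365% of all windows; it shares its CCACG end with ERSE. The C/EBP-ATF element of Atf4 targets, CARE, searched as TGATGNAA, was in Trib3, Chac1, Asns and Herpud1 and in 3.97% of all windows. The core of the Xbp1 element UPRE, TGACGTGG, was in 0 of the 28 and in 0.676% of all windows. A match is a description of letters, not a measured binding site.

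The windows below show the motif in capitals with 10 bases on either side, on the strand of the gene, for 4 ERSE genes that span the levels seen in nicotine 3, for the Herpud1 ERSE-II and for the 4 CARE genes; where the motif lies on the opposite strand its reverse complement is seen.
Hspa5 ERSE, chr2:34772015-34772053, plus strand, beginning 65 bases before the start: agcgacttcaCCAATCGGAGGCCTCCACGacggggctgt
Derl3 ERSE, chr10:75893232-75893270, plus strand, opposite orientation, 156 bases before the start: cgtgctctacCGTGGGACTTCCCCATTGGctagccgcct
Dnajc3 ERSE, chr14:118937817-118937855, plus strand, 105 bases before the start: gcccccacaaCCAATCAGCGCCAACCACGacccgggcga
Canx ERSE, chr11:50325790-50325828, minus strand, 145 bases before the start: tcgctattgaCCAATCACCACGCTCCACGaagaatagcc
Herpud1 ERSE-II, chr8:94386367-94386397, plus strand, 52 bases before the start: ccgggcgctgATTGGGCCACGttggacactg
Herpud1 CARE, chr8:94386307-94386334, plus strand, opposite orientation, 112 bases before the start: ccacggcgggTTGCATCAgcccgcaccc
Asns CARE, chr6:7693215-7693242, minus strand, 23 bases before the start: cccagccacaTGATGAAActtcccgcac
Chac1 CARE, chr2:119351039-119351066, plus strand, opposite orientation, 193 bases before the start: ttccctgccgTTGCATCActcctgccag
Trib3 CARE, chr2:152344029-152344056, minus strand, opposite orientation, 15 bases into the transcript: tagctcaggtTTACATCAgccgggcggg

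The whole upstream window of Hspa5, the best known target of the ERSE, is shown to place that element (capitals) in its promoter, chr2:34771840-34772089, plus strand, GRCm38.p6.
Hspa5 promoter: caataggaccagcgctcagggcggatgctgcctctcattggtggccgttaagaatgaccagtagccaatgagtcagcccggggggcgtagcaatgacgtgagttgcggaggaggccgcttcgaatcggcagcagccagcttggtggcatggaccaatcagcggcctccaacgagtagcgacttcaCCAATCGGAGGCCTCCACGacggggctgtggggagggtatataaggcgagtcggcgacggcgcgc

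In nicotine 3 the 9 ERSE genes lay below the water mean by a median of -1.15 log2 units, from -3.34 (Derl3) to -0.36 (Canx). The 19 genes whose windows hold no ERSE had a median of -1.15 as well, with a range from -2.60 (Ern1) to 0.53 (Ddit3). The 3 genes with a CARE and no ERSE-II were near the water mean, at -0.03 for Asns, 0.02 for Trib3 and 0.22 for Chac1. Herpud1, which has both elements, was at -1.42. Atf4 and Ddit3, with no CARE in their windows, were at 0.23 and 0.53, and the other genes without a CARE were below the water mean. Over all tested genes the median in nicotine 3 was -0.02. Without nicotine 1 and 3, the ERSE genes had a median difference of -0.07, with 6 of 9 lower, and the genes without it a median of -0.06, with 13 of 19 lower. Genes with and without an ERSE thus had overlapping levels, and neither this comparison nor that by CARE was tested.

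**Figure D2:**
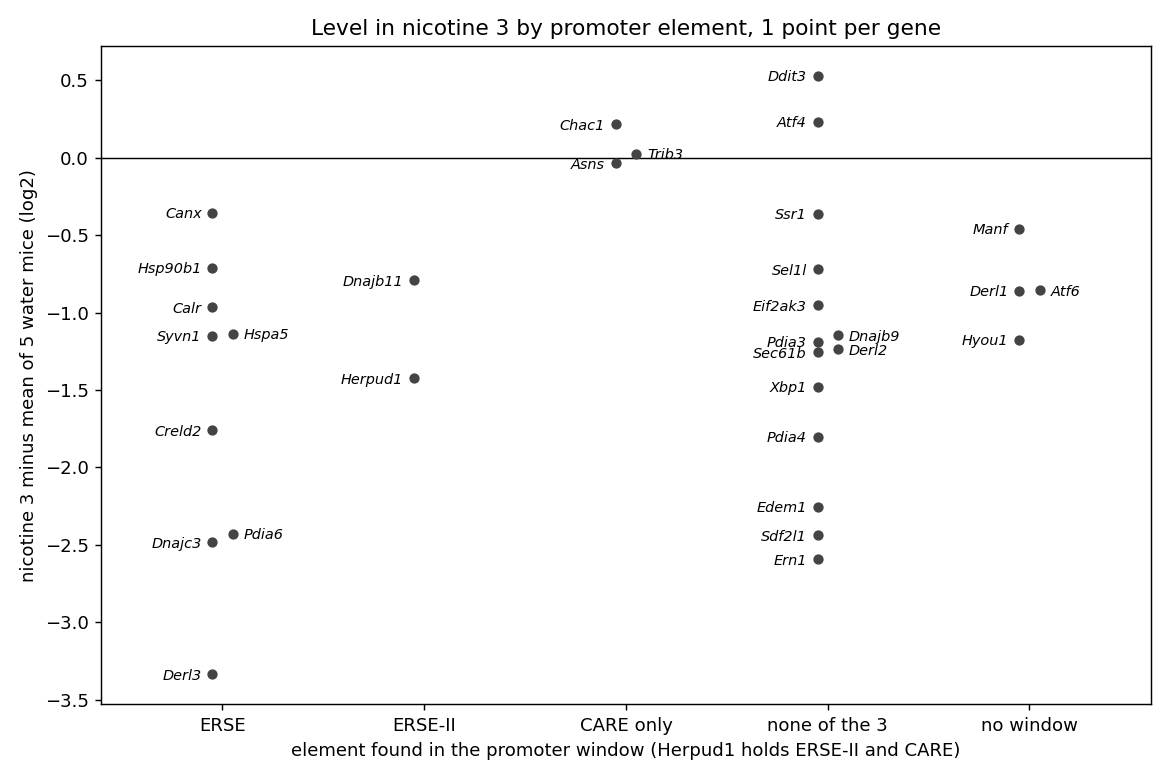
Each point is 1 of the 32 genes, placed by the element found in its promoter window (9 ERSE, 2 ERSE-II, 3 CARE only, 14 with none of the 3, 4 without a window) and by its level in nicotine 3 minus the mean of the 5 water mice (log2). The ERSE genes spread from -3.34 to -0.36, over much of the range of the genes without an element. The 3 CARE only genes sit at -0.03 to 0.22, and Herpud1, with ERSE-II and CARE, at -1.42.

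The 3 sensors were lower by mean in both comparisons. Eif2ak3 (Perk, the kinase that phosphorylates the translation factor eIF2 alpha) was at 9.49, 9.55, 9.54, 9.50 and 9.59 in water mice 1 to 5 and at 9.11, 9.33, 8.58, 9.45 and 9.35 in nicotine mice 1 to 5. Every nicotine mouse was below every water mouse, although nicotine 4 was only just so. The log2 difference was -0.37 ± 0.15 (SE), with an unadjusted p of 0.0322 and an adjusted p of 0.458 by limma. It was -0.16 ± 0.05 without nicotine 1 and 3, from 9.53 ± 0.04 (SD, n = 5) to 9.38 ± 0.07 (SD, n = 3), with a limma adjusted p of 0.203.

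Ern1 (Ire1, the kinase and RNase that splices Xbp1) was at 10.92, 10.85, 10.85, 10.98 and 10.82 in the water group and at 10.27, 10.73, 8.29, 10.91 and 10.75 in the nicotine group. The level in nicotine 3 was 6.04-fold under the water mean, the lowest ratio of the sensors, and nicotine 1 was next. The groups overlapped, with differences of -0.70 ± 0.44 (SE) over all mice and -0.09 ± 0.06 without nicotine 1 and 3. For Atf6 (the membrane-bound sensor and transcription factor) the values were 10.44, 10.30, 10.37, 10.38 and 10.33 with water and 10.22, 10.40, 9.51, 10.27 and 10.27 with nicotine. Only nicotine 3 was far from the rest, and the differences were -0.23 ± 0.15 and -0.05 ± 0.06.

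Among the stress transcription factors and their targets, Xbp1 was low in nicotine 3, as the chaperones were, and the other 5 were not. Xbp1, whose spliced product drives secretory capacity, was at 11.92, 12.06, 12.08, 11.94 and 11.91 with water and 12.11, 11.95, 10.50, 11.99 and 12.00 with nicotine. Nicotine 1 was the highest mouse and nicotine 3 the lowest, 2.79-fold under the water mean. The difference was -0.27 ± 0.28 (SE) over all mice and 0.00 in size, ± 0.06, without the 2 arrays.

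Atf4, the factor of the integrated stress response, was at 9.03, 8.89, 8.95, 9.03 and 8.95 with water and 9.18, 9.19, 9.20, 8.86 and 8.99 with nicotine. Nicotine 1, 2 and 3 were above all water mice and nicotine 4 below them, and the difference was 0.11 ± 0.08 (SE) over all mice and 0.04 ± 0.07 without nicotine 1 and 3. Ddit3 (Chop, a factor tied to cell death under stress) was at 8.37, 8.12, 8.29, 8.43 and 8.32 with water and 8.30, 8.33, 8.83, 8.25 and 8.18 with nicotine. Its highest level was in nicotine 3, the mouse with the lowest level of 27 of the 32 genes. Nicotine 3 was the highest mouse for 2 of the 32 genes, and for 4519 of the 14953 tested genes. The difference for Ddit3 was 0.07 ± 0.12 over all mice and -0.05 ± 0.07 without the 2 arrays, so its sign turned.

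Trib3, a pseudokinase induced by Atf4 and Chop, had the smallest p of its group and was at 7.34, 7.51, 7.47, 7.54 and 7.60 with water and 7.71, 7.73, 7.52, 7.51 and 7.65 with nicotine. The groups overlapped. The difference was 0.13 ± 0.07 (SE) over all mice and 0.14 ± 0.07 without nicotine 1 and 3, with limma adjusted p-values of 0.458 and 0.404. Chac1 (a glutathione-degrading enzyme) and Asns (asparagine synthetase) had differences of 0.00 ± 0.15 and 0.06 ± 0.13 over all mice, -0.04 ± 0.16 and 0.05 ± 0.13 without the 2 arrays, and water SDs of 0.33 and 0.25 (n = 5) beside a median of 0.07 over the 32 genes.

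All 9 chaperone and cochaperone genes had a lower mean over all mice, and 7 did without nicotine 1 and 3. Dnajb9 (ERdj4, a BiP cochaperone that restrains Ire1) had the smallest p of the 32 genes. It was at 11.09, 11.09, 11.13, 11.23 and 10.96 with water and 10.08, 10.82, 9.95, 10.78 and 10.70 with nicotine. All nicotine mice were below all water mice, and nicotine 1 was nearly as low as nicotine 3. The difference was -0.63 ± 0.18 (SE), with an unadjusted p of 0.00552 and an adjusted p of 0.458 by limma. Without nicotine 1 and 3 it was -0.33 ± 0.07, a ratio of 0.79, from 11.10 ± 0.10 (SD, n = 5) to 10.77 ± 0.06 (SD, n = 3), with an adjusted p of 0.0947 by limma. With water 5 also left out the adjusted p was 0.0392; over the other alternatives of this comparison it ran from 0.0104 with array weights to 0.332 with the mouse number as a block.

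The groups without nicotine 1 and 3 also differed in tissue markers. Fibroblast markers averaged 9.12 to 9.39 in the 3 nicotine mice and 9.72 to 10.09 in the 5 water mice, all 8 markers measured, and proliferation markers averaged 10.07 to 10.13 against 9.65 to 9.85 (9 of 10 markers). Their part in the levels of Dnajb9, Eif2ak3, Sel1l and Hspa5 was not tested. Luminal markers overlapped, at 11.57 to 11.81 against 11.54 to 11.78. Seminal vesicle secretory genes, from a gland next to the prostate, averaged 12.06, 13.15 and 12.95 in water 3, 4 and 5 and 12.52 in nicotine 5, and 5.92 to 8.54 in the other 6 mice. With that mean as a covariate the Dnajb9 difference was -0.34 ± 0.07 (SE) without nicotine 1 and 3 and -0.53 ± 0.19 over all mice. Over all mice, 1 of the 32 genes then had an unadjusted p under 0.05 by limma; the share of all tested genes there is not given.

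**Figure D3:**
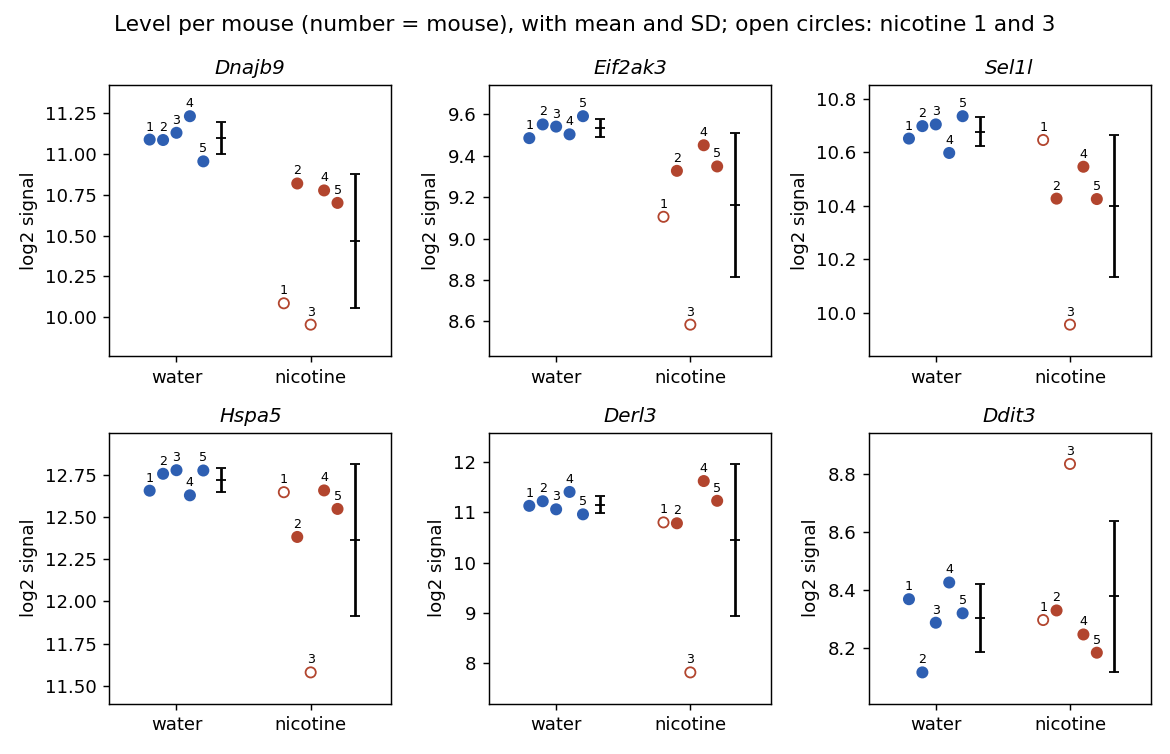
Log2 signal of 6 genes in each mouse (number beside the point), with the mean and SD of each group of 5 as bars; open circles are nicotine 1 and 3, and each panel has its own axis. Dnajb9 and Eif2ak3 separate the groups, Sel1l does so only when nicotine 1 is left out, Hspa5 and Derl3 overlap, and Ddit3 is highest in nicotine 3.

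Hspa5, the gene of BiP, was at 12.65, 12.75, 12.78, 12.63 and 12.77 with water and 12.65, 12.38, 11.58, 12.66 and 12.55 with nicotine. Nicotine 2, 3 and 5 were below all water mice, and nicotine 1 and 4 were among them. The difference was -0.36 ± 0.19 (SE) over all mice and -0.19 ± 0.07 without nicotine 1 and 3, with limma adjusted p-values of 0.458 and 0.252. When nicotine 2 was left out as well, it was -0.12 ± 0.07. Hsp90b1 (Grp94, the ER Hsp90) was at 12.27, 12.32, 12.36, 12.29 and 12.47 with water and 12.20, 12.10, 11.63, 12.40 and 12.28 with nicotine, so that nicotine 1, 2 and 3 were the lowest mice. Its differences were -0.22 ± 0.13 and -0.08 ± 0.08.

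The other chaperone genes separated by their level in nicotine 3. The BiP cochaperone genes Dnajc3 (p58IPK) and Sdf2l1 were 5.59- and 5.42-fold under the water mean there, and Creld2, a stress-induced folding factor, was 3.39-fold under it. Hyou1 (the exchange factor Grp170), Dnajb11 (ERdj3) and Manf (a secreted BiP-binding protein) were 2.26-, 1.73- and 1.37-fold under it. These last 3 and Creld2 were at or above the water mean in nicotine 1, by 0.08 to 0.30 log2 units, whereas Dnajc3 and Sdf2l1 were below it by 0.40 and 0.49. Without the 2 arrays all 6 differences lay between -0.10 and 0.06, each less than 2 times its SE.

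The lectin chaperones Calr and Canx hold glycoproteins until they fold. Canx was at 12.66, 12.82, 12.79, 12.73 and 12.81 with water and 12.61, 12.65, 12.41, 12.73 and 12.69 with nicotine. It was among the genes least reduced in nicotine 3, at 1.28-fold under the water mean, and its differences were -0.15 ± 0.07 (SE) and -0.07 ± 0.06. Calr was 1.95-fold lower in nicotine 3 with a difference of -0.20 ± 0.18 over all mice and of 0.00 in size, ± 0.06, without the 2 arrays.

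All 3 disulfide isomerases, which form and rearrange disulfide bonds, were more than 1 log2 unit lower in nicotine 3 than the water mean. Pdia3, the partner of Calr and Canx, was at 12.38, 12.39, 12.46, 12.33 and 12.45 with water and 11.94, 12.24, 11.21, 12.39 and 12.36 with nicotine. Nicotine 1, 2 and 3 were below all water mice and the other 2 were within their range. The differences were -0.37 ± 0.20 (SE) and -0.07 ± 0.06. Pdia4 and Pdia6 were 3.49- and 5.38-fold under the water mean in nicotine 3, with differences of -0.49 ± 0.31 and -0.54 ± 0.44 over all mice and of -0.09 ± 0.08 and 0.04 ± 0.06 without the 2 arrays.

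The translocation genes parted in nicotine 3. Sec61b, a small subunit of the channel, was at 10.06, 9.98, 10.03, 10.06 and 10.14 with water and 10.11, 10.10, 8.80, 10.18 and 10.12 with nicotine. Apart from nicotine 3, at 2.39-fold under the water mean, the nicotine mice, from 10.10 to 10.18, lay in the upper part of the water range or just above it. The difference was -0.19 ± 0.25 (SE) over all mice and 0.08 ± 0.05 without nicotine 1 and 3. Ssr1, of the translocon-associated complex, was at 11.57, 11.76, 11.65, 11.74 and 11.61 with water and 11.33, 11.53, 11.31, 11.67 and 11.61 with nicotine. Nicotine 1 and 3 were alike for this gene, and the differences were -0.18 ± 0.09 and -0.06 ± 0.06.

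Of the degradation genes all 7 had a lower mean over all mice and 4 did without nicotine 1 and 3. Sel1l, the adaptor of the Hrd1 ubiquitin ligase, was at 10.65, 10.70, 10.70, 10.60 and 10.73 with water and 10.65, 10.43, 9.96, 10.55 and 10.43 with nicotine. Nicotine 1 was within the water range and the other 4 nicotine mice were below it. The difference was -0.28 ± 0.12 (SE) over all mice, with an unadjusted p of 0.042 and an adjusted p of 0.458 by limma. Without nicotine 1 and 3 it was -0.21 ± 0.06, from 10.68 ± 0.05 (SD, n = 5) to 10.47 ± 0.07 (SD, n = 3), with an adjusted p of 0.139.

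Derl3, a derlin of secretory cells, was chosen for its values: it had the lowest ratio of the 32 genes in nicotine 3. It was at 11.13, 11.22, 11.06, 11.41 and 10.96 with water and 10.80, 10.78, 7.82, 11.62 and 11.23 with nicotine, 10.1-fold under the water mean in nicotine 3. Nicotine 4 was the highest mouse, and without nicotine 1 and 3 the difference was 0.06 ± 0.16 (SE). Plasma cells also express Derl3 strongly. Of 11 plasma cell markers listed, 5 passed the filter and averaged 7.27 in nicotine 3, 7.71 in nicotine 1 and 7.41 to 7.54 in water mice. In nicotine 3, Sdc1, Prdm1 and Ighm were below all water mice, and Mzb1 and Pou2af1 were within their range. The part of plasma cells in the Derl3 levels was not tested. Edem1, which extracts glycoproteins for degradation, was 4.78-fold under the water mean in nicotine 3 and 0.70 log2 units under it in nicotine 1. Herpud1 (a Hrd1 partner), Derl2, Syvn1 (Hrd1 itself) and Derl1 were 2.68-, 2.36-, 2.22- and 1.82-fold under it in nicotine 3. Without the 2 arrays these 5 genes had differences from -0.13 (Herpud1) to 0.08 (Derl2), with a smallest adjusted p of 0.377 by limma.

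**Figure D4:**
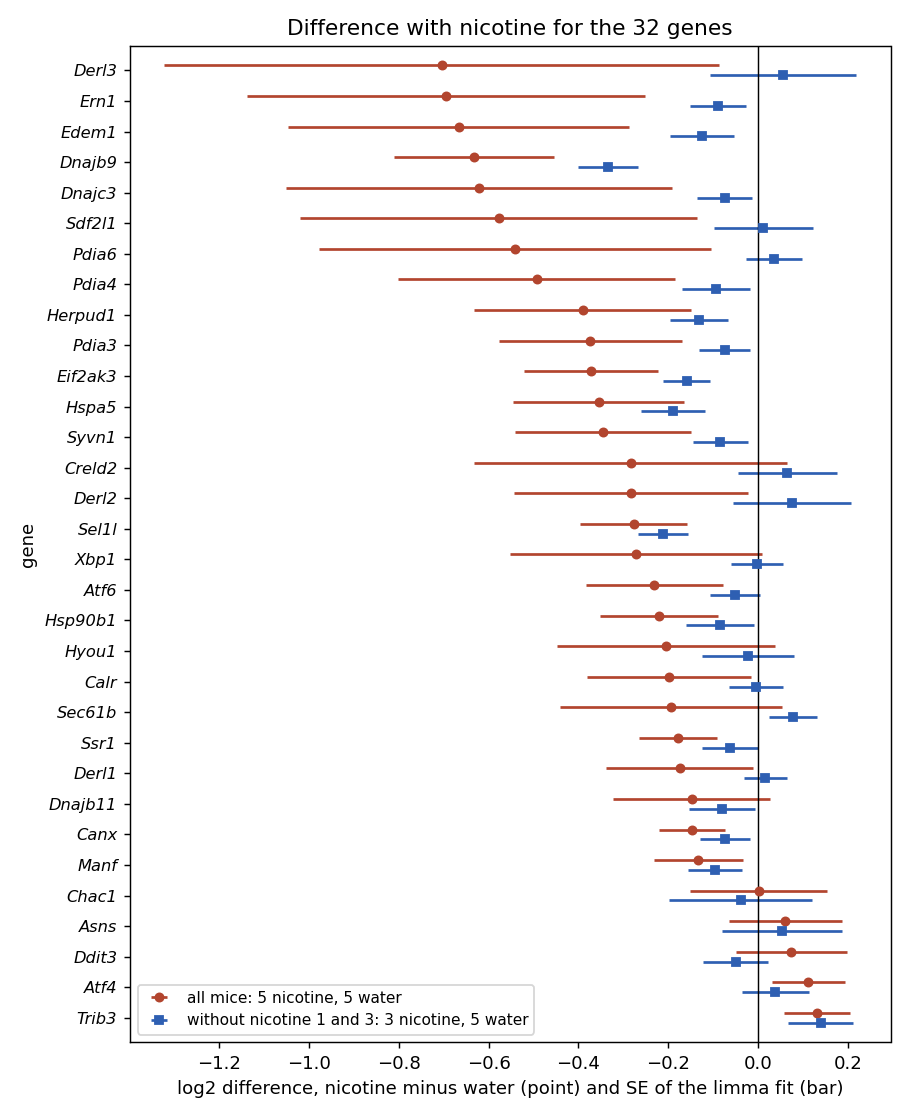
Log2 difference, nicotine minus water, with the SE of the limma fit for each of the 32 genes, over all mice (circles) and without nicotine 1 and 3 (squares). Leaving out the 2 arrays brings Derl3 from -0.70 to 0.06 and Ern1 from -0.70 to -0.09, Dnajb9 from -0.63 to -0.33 and Sel1l from -0.28 to -0.21.

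Among the 8 other mice, nicotine 2 was the lowest for 17 of the 32 genes, or 53.1%, against 14.2% of tested genes. They included Hspa5, Hsp90b1, Hyou1, Dnajb11, Manf, Creld2, Calr, Canx and all 3 disulfide isomerases. The median distance from the water mean was -0.15 in nicotine 2, 0.01 in nicotine 4 and -0.05 in nicotine 5, beside a median water SD of 0.07. Seminal vesicle genes averaged 7.96 in nicotine 2 and 8.54 in nicotine 4, and 7.21 and 7.31 in water 1 and 2. The luminal marker mean of nicotine 2 was 11.81, against 11.54 to 11.78 in water mice. Its basal epithelial mean was 7.78, against 7.45 to 7.74 in water mice. The part of these markers in the ER gene levels of nicotine 2 was not tested.

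A list of 156 symbols for other genes of the same pathways, chosen by function and holding older and newer names of some genes, had 140 tested members. Of these, 115 were lower and 25 higher over all mice, with a median of -0.23, 0 past the adjusted threshold, 17 lower and 2 higher at an unadjusted p under 0.05, and groups apart in 9 lower and 2 higher. Over all tested genes those shares were 5.84% and 4.28% for the unadjusted p and 2.88% and 2.02% for groups apart. Of all tested genes, 49.3% were lower over all mice and 46.5% without nicotine 1 and 3. Of the 140, 93 were lower and 47 higher without nicotine 1 and 3, with a median of -0.04 and 0 past the threshold. At an unadjusted p under 0.05, 21 were then lower and 6 higher, where the shares of tested genes were 8.69% and 6.01%. Nicotine 3 was the lowest mouse for 67.9% of the 140.

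In the translocation list, 18 of 20 genes were lower over all mice and 16 without nicotine 1 and 3, with Sec63 at -0.38 ± 0.10 (SE) and Srp72 of the signal recognition particle at -0.27 ± 0.12. Chaperone and oxidative folding genes were lower in 20 of 22 (17 without the 2 arrays), with Hspa13 at -0.49 ± 0.14 and Fkbp7 at -0.57 ± 0.17. N-glycosylation genes were lower in 18 of 19 (16 without the 2 arrays), with the catalytic oligosaccharyltransferase subunits Stt3b and Stt3a both at -0.35 (± 0.13 and ± 0.14). Genes of ER exit and transport were lower in 23 of 24, nicotine 3 being the lowest mouse for 22, but in 14 of 24 without the 2 arrays, with the coat protein gene Sec24a at -0.37 ± 0.12 and Sar1b at -0.43 ± 0.15. Other degradation genes were lower in 16 of 20 (15 without the 2 arrays), with Edem3 at -0.42 ± 0.16 and Ubxn4 at -0.44 ± 0.18. The adjusted p was 0.458 by limma for each gene named here. Sec63, Hspa13, Stt3b, Stt3a and Sec24a had groups that stood apart over all mice, and without nicotine 1 and 3 their differences were -0.24, -0.34, -0.20, -0.16 and -0.19. Those of Srp72, Fkbp7, Sar1b, Edem3 and Ubxn4 were then -0.10, -0.40, -0.20, -0.18 and -0.17.

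The remaining 2 lists cover signalling. Of 19 amino acid response genes known as Atf4 targets, 8 were lower and 11 higher, with a median of 0.02 (7 and 12 without nicotine 1 and 3), and nicotine 3 was the lowest mouse for 5. Shmt2, a mitochondrial serine enzyme, had a difference of 0.25 ± 0.13 (SE), and Cth, which makes cysteine, one of -0.84 ± 0.44; without the 2 arrays these were 0.09 ± 0.09 and -0.18 ± 0.10. Of 16 other stress signalling genes, 12 were lower and 4 higher over all mice, and 8 lower and 8 higher without the 2 arrays. The death gene Bbc3 (0.13 ± 0.05) and the phosphatase subunit gene Ppp1r15a (Gadd34, 0.12 ± 0.05) had the smallest p, with groups that stood apart and adjusted p-values of 0.458 by limma. Their differences were 0.15 ± 0.05 and 0.12 ± 0.05 without nicotine 1 and 3. Bbc3 was just above the filter limit of 6.55, with a mean of 6.63 in water mice and 6.76 in nicotine mice. Whether the Atf4 targets differ from the folding genes was not tested.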

How the data were processed

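The authors deposited 1 table of log2 signals for 35556 probe sets and 10 arrays. The labels' protocols give Trizol extraction, amplification with a whole-transcript kit and biotin labelling before hybridisation; no source used here states how the authors corrected background, summarised probes or normalized. The log2 unit was read from the range, 3.59 to 14.1. Probe sets with 1 symbol (21789) gave 19938 genes, the highest mean probe set was kept, and the 25% of genes with the lowest mean (under 6.55) were left out. Genes were fitted with limma 3.58.1 in R 4.3.3 (lmFit, eBayes; SEs of genes are moderated), two-sided, with Benjamini-Hochberg adjustment over 14953 genes. The script was tested on simulated data.

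The members and lists were chosen with earlier results of these data known. The promoter motifs were searched in RefSeq windows. Per-mouse values are given for Hspa5, Hsp90b1, Ddit3, Atf4, Xbp1, the sensors, the smallest p of each role group in either comparison and genes whose groups stood apart; Derl3 was added after its values were seen; of related lists, the 2 genes with the smallest p are named. Of 156 related symbols 143 matched. Separate label numbers mark separate mice; the number of arrays limits precision. No batch is named in the labels, so none was tested.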

Additional observations from a re-analysis of the deposited data

Results flagged for a closer look

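Each gene was examined in each group of 5. A mouse was flagged when its gap to the nearest mouse, over the group's range, exceeded Dixon's 95% critical value for 5 samples. Chance flags about 1 group in 20. By this rule 17 of 64 groups were flagged, all but 1 of them for nicotine 3, so they are not independent cases. Over all tested genes, nicotine 3 was flagged for 14.9% and each other mouse for 0.09% to 3.33%. In nicotine 3 the values were low for Ern1 (8.29), Atf6 (9.51), Xbp1 (10.50), Hspa5 (11.58), Dnajc3 (9.12), Sdf2l1 (9.46), Creld2 (9.64) and Calr (11.58). They were also low there for Pdia4 (10.44), Pdia6 (9.39), Sec61b (8.80), Herpud1 (10.56), Derl1 (9.97), Derl3 (7.82) and Syvn1 (8.87). Ddit3 was high in nicotine 3, at 8.83, as were 1105 of the 14953 tested genes by the same rule. The remaining case was Pdia6 in water 5, at 11.90 against 11.79 to 11.80 in the other water mice, a small distance in a narrow group. Nicotine 3 was far on the low side of its group for 15 of the 32 genes and for 7.51% of tested genes. Dnajb9, Eif2ak3 and Sel1l were not among these cases.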

How the results depend on the processing

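Over all mice, 0 of the 32 genes passed the adjusted threshold and with array weights 3 did (Dnajb9, Eif2ak3, Sel1l); without nicotine 1 and 3 the numbers were also 0 and 3. Of all 14953 tested genes 0 passed in either comparison. With array weights 1096 and 1143 did, shares near that of 3 in 32. Without nicotine 1 and 3, 17 did with quantile normalization, 18 with the filter at 50%, 27 with a trended robust fit, 2 with the covariate, 90 without water 5 and 20 without nicotine 4. Over all mice, the genes of the list at an unadjusted p under 0.05 went from 3 to 8 with array weights. The count was 4 with the mean of a gene's probe sets, 2 with quantile normalization and 1 with the seminal vesicle mean as a covariate. The shares of all tested genes at that threshold in the alternative settings are not given, so no background stands beside these counts. For the comparison without nicotine 1 and 3 the seminal vesicle covariate was added after seeing the data. With one mouse left out in turn, 0 genes passed over all mice and 0 to 1 without nicotine 1 and 3 (Dnajb9, without water 5); the unadjusted counts were 1 to 5 and 2 to 7. The median difference was -0.0684 with array weights and -0.1494 with the covariate over all mice. With one mouse left out it ran from -0.3275 to -0.0723 over all mice, the last without nicotine 3, and from -0.0967 to -0.0281 without nicotine 1 and 3. The cause of these shifts was not tested.

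Signs also turned, for large all-mice differences (Derl3, Sdf2l1, Pdia6) as for small ones. Over all mice with array weights the values were -0.0484 for Asns, -0.0634 for Chac1, 0.0723 for Creld2, -0.0691 for Ddit3, 0.0127 for Derl1, 0.0458 for Derl2, 0.0221 for Derl3, 0.0237 for Hyou1, 0.0367 for Pdia6 and 0.0733 for Sec61b. Leaving out nicotine 1 and 3 turned Chac1 (-0.0383), Creld2 (0.0649), Ddit3 (-0.0500), Derl1 (0.0166), Derl2 (0.0763), Derl3 (0.0562), Pdia6 (0.0357), Sdf2l1 (0.0123) and Sec61b (0.0781). In that comparison Calr turned with quantile normalization (0.0503), and Asns (-0.0652), Hyou1 (0.0332) and Sdf2l1 (-0.0161) with array weights. With one mouse left out over all mice the ranges were -0.0787 to 0.1330 for Chac1, -0.4343 to 0.0856 for Creld2, -0.0392 to 0.1231 for Ddit3, -0.2586 to 0.0134 for Dnajb11, -0.3111 to 0.0383 for Hyou1, -0.2741 to 0.0726 for Sec61b and -0.3714 to 0.0309 for Xbp1; apart from Chac1, these turned only without nicotine 3. Without nicotine 1 and 3 they were -0.0278 to 0.1589 for Asns, -0.0487 to 0.1139 for Atf4, -0.0581 to 0.0497 for Calr, -0.1182 to 0.0935 for Chac1, -0.0617 to 0.1951 for Creld2, -0.0123 to 0.1549 for Derl2, -0.1492 to 0.2705 for Derl3, -0.1181 to 0.0968 for Hyou1, -0.0095 to 0.1019 for Pdia6, -0.0603 to 0.1133 for Sdf2l1 and -0.0203 to 0.0222 for Xbp1.

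Deviations of same-numbered mice from their group means correlated at -0.1287 to 0.1642. The nicotine means include nicotine 1 and 3, so these values cannot exclude a pairing by mouse number. With the number as a replicate block, 0 genes passed in either comparison, 2 and 3 had an unadjusted p under 0.05, and without nicotine 1 and 3 the signs of Asns (-0.0299), Derl1 (-0.0029), Sdf2l1 (-0.0007) and Xbp1 (0.0096) turned. No mouse correlated best with its own number. The other filters, probe set choices and scalings kept the count of adjusted calls at 0, and the filter at 50% left 31 genes tested, without Trib3.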

Other observations

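Within the water group, Asns and Chac1 were both highest in water 4, at 11.26 and 8.86, against 10.61 to 10.81 and 8.01 to 8.38 in the other water mice. Trib3, another target of Atf4, was at 7.54 in water 4 and 7.60 in water 5, and Atf4 itself was at 9.03 in water 4 and in water 1. The seminal vesicle mean was 13.15 in water 4, the highest of the 10 mice; its part in these levels was not tested. Krt8, a luminal keratin, was at 13.14 in nicotine 1, the highest of the 10 mice, and at 7.98 in nicotine 3.

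Several probe sets exist for 3 of the genes. All 3 probe sets of Sec61b were lowest in nicotine 3, at 8.80, 7.13 and 8.09. The dimmer probe set of Pdia4 was at 7.29 in nicotine 3 and 7.32 in nicotine 1, against 7.80 to 8.55 in water mice. Nicotine 2 and nicotine 5 were also below all water mice for this probe set, and nicotine 4 was within their range. With the mean of a gene's probe sets, the Pdia4 difference over all mice was -0.53 ± 0.21 (SE). Its unadjusted p was then 0.028 and its adjusted p 0.458 by limma. Both probe sets of Dnajc3 carry the same values and were counted once.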
